A study of Homo sapiens with 4 samples.

Results

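Keratins and claudins are epithelial gene families, examined here in U2OS cells, a human osteosarcoma line of mesenchymal origin. Members were chosen by symbol, as the protein-coding genes whose platform symbol is KRT or CLDN followed by a number, with a letter allowed at the end for keratins. They came to 71 of the 14884 genes named on the arrays, 47 keratins and 24 claudins. Where a gene had several probe sets, the probe set standing for it was selected on the highest mean signal over the 4 arrays, so signal levels are given as description without a test. KRT42P has a symbol of the same form and was left out as a pseudogene, and KRT6A, KRT6B, KRT17, KRT34, KRT81, KRT82, KRT86 and KRT222 were not analysed here.

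The cells received siRNA at 50 nM by lipid transfection, directed at BRPF3 on 2 arrays and non-targeting on the other 2 (control siRNA), and total RNA was taken at 48 hours. BRPF3 is a scaffold protein of histone acetyltransferase complexes. The annotation names no probe set for BRPF3, so its knockdown was not checked. All 4 arrays are of 1 cell line, and the 2 BRPF3 siRNA arrays are of 1 BRPF3 siRNA treatment. The labels call the arrays of a group biological replicates without saying how separate the cultures were, and p-values then reflect only how far these arrays spread, which may be technical; their small number limits the precision.

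Keratins build intermediate filaments, which give epithelial cells mechanical strength. Each filament is made of pairs of an acidic type I keratin and a basic type II keratin, and which pair a cell makes is characteristic of its epithelium: KRT8 with KRT18 in simple epithelia, KRT5 with KRT14 in basal epidermis, KRT1 with KRT10 in upper epidermis, and separate sets in hair. Claudins are membrane proteins that form the strands of tight junctions, some as a seal against ions and some as a channel for them. Bone and mesenchymal cells lack a sealed epithelial layer, although tumour lines of such origin can express members of both families.

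After BRPF3 siRNA 4 members rose and 1 fell. KRT75 of the hair follicle rose 3.05-fold, the barrier claudin CLDN1 2.74-fold, the hair shaft keratin KRT33B 1.91-fold and KRT20 of the gut lining 1.81-fold. KRT18 fell by 0.49 on the log2 scale on its brighter probe set, whose number lies among genes of another chromosome. The other KRT18 probe set (-0.28) did not pass. The other 27 tested members did not pass the test, and 39 members were too dim to be tested. The test was limma's moderated test over 10696 genes, with a change called at a Benjamini-Hochberg adjusted p under 0.05. The 5 called members were 15.6% of the 32 tested, against 15.8% of all tested genes called, so the families did not stand out by the number of changes. In the upward direction the share was 12.5% of members against 6.32% of all genes, and in the downward direction 3.12% against 9.44%. KRT20 and KRT33B reached the signal needed for the test only through their BRPF3 siRNA arrays, and among tested genes bright enough with control siRNA alone, 2 of 29 members (6.90%) rose, against 6.25% of all such genes. Leaving out either control siRNA array left 0 of the 10696 genes called, and the adjusted p-values of the 5 members were then 0.0699 to 0.130 without replicate 1 and 0.0816 to 0.118 without replicate 2 (limma). KRT75 and CLDN1 were known as large changes of these data when the families were chosen, so these shares are descriptions.

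The start regions of the 4 members that rose are shown with that of KRT33A, the neighbouring relative of KRT33B that stayed dim. Each runs from 250 bases before the annotated start to the first 50 transcribed bases (RefSeq, GRCh38.p14, 5′ to 3′ on the gene's strand). Capitals mark every match, on either strand, to TATAAA (the TATA box), TGANTCA (the AP-1 site), GGGCGG (the GC box) or CACCTG (an E-box read by SNAI and ZEB repressors).
KRT75 (chr12:52434322-52434621, minus strand): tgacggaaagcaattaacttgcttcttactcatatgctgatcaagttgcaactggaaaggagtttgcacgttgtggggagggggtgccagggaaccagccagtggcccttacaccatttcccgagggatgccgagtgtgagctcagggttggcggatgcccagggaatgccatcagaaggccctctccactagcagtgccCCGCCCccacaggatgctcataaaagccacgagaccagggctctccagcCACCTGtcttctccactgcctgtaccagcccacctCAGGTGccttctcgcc
KRT33B (chr17:41369764-41370063, minus strand): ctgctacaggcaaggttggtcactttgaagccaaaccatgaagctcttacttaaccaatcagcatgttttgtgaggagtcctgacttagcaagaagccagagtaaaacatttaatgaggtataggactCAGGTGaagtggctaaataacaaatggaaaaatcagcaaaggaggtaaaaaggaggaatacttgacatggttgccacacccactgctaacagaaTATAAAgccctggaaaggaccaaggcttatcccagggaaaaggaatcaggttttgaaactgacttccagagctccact
KRT33A (chr17:41350779-41351078, minus strand): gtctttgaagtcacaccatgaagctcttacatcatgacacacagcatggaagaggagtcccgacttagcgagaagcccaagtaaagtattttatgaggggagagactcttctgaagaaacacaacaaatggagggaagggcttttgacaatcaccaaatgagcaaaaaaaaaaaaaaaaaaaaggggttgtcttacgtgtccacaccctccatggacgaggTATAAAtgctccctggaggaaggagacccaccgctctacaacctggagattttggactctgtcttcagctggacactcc
KRT20 (chr17:40885193-40885492, minus strand): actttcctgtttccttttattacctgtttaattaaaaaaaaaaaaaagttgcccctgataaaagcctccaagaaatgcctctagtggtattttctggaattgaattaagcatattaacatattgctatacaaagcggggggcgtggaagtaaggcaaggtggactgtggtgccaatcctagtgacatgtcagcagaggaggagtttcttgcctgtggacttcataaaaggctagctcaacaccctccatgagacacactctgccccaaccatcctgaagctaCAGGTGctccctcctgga
CLDN1 (chr3:190322397-190322696, minus strand): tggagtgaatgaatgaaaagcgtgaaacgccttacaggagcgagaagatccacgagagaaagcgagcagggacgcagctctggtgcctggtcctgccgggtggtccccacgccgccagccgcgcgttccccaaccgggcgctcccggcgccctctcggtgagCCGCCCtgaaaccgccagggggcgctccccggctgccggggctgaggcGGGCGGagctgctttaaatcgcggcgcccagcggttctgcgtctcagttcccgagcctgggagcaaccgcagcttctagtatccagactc
KRT33B and KRT33A both hold TATAAA, at -28 and -29 from the start, and KRT33B also holds the E-box letters at -122. KRT75 has a GC box match at -50 and E-box matches at -1 and 35, KRT20 an E-box match at 33, and CLDN1 GC box matches at -88 and -40. TGANTCA was in none of these 5 windows, and no matches overlapped. The only motif found in more than 2 of the 4 risen members' windows was the E-box, in 3 of them, against 19.9% of all protein-coding promoters. These 4 genes were picked for their rise, and a role of the motif was not tested.

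A promoter was at hand for 51 of the 71 members. TATAAA was in 19 of these 51 windows (37.2%), against 9.63% of 15841 protein-coding promoters of the same length. The split between the families was wide, with TATAAA in 18 of 32 keratin windows (56.2%) and 1 of 19 claudin windows (5.3%). GGGCGG was in 25.5% of member windows against 58.5% of all, CACCTG in 23.5% against 19.9%, and TGANTCA in 7.84% against 5.75%. The median number of CpG dinucleotides was 2 in keratin windows and 8 in claudin windows, against 22 over all promoters. CLDN1, with 31 CpGs, lay above that median, and KRT75, KRT20 and KRT33B lay below it with 8, 2 and 0.

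Signals are log2 values, on which 1 unit is a doubling. A gene was tested if its mean over the 4 arrays reached 4.59, the median of all probe sets. Signal under this bound may lie near background, whose level was not measured here. By this bound 39 of 71 members (54.9%) were dim, 30 of 47 keratins and 9 of 24 claudins. The share was 28.1% of all named genes and 20.3% of the protein-coding ones. The dim type II keratins were KRT1, KRT2, KRT3, KRT5, KRT6C, KRT7, KRT71, KRT72, KRT73, KRT74, KRT76, KRT77, KRT78, KRT83 and KRT84. The dim type I keratins were KRT9, KRT10, KRT12, KRT15, KRT24, KRT25, KRT26, KRT27, KRT28, KRT32, KRT33A, KRT35, KRT38, KRT39 and KRT40. The dim claudins were CLDN6, CLDN8, CLDN10, CLDN16, CLDN17, CLDN20, CLDN22, CLDN24 and CLDN34. Nearest to the bound, KRT13 averaged 4.61 and was tested, whereas KRT84 averaged 4.44 and was not. Among the dim members the differences ran from -0.55 (KRT3) to 0.57 (KRT77), and the groups of arrays did not overlap for 14 of the 39 (35.9%), against 41.5% of all genes under the bound.

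**Figure D1:**
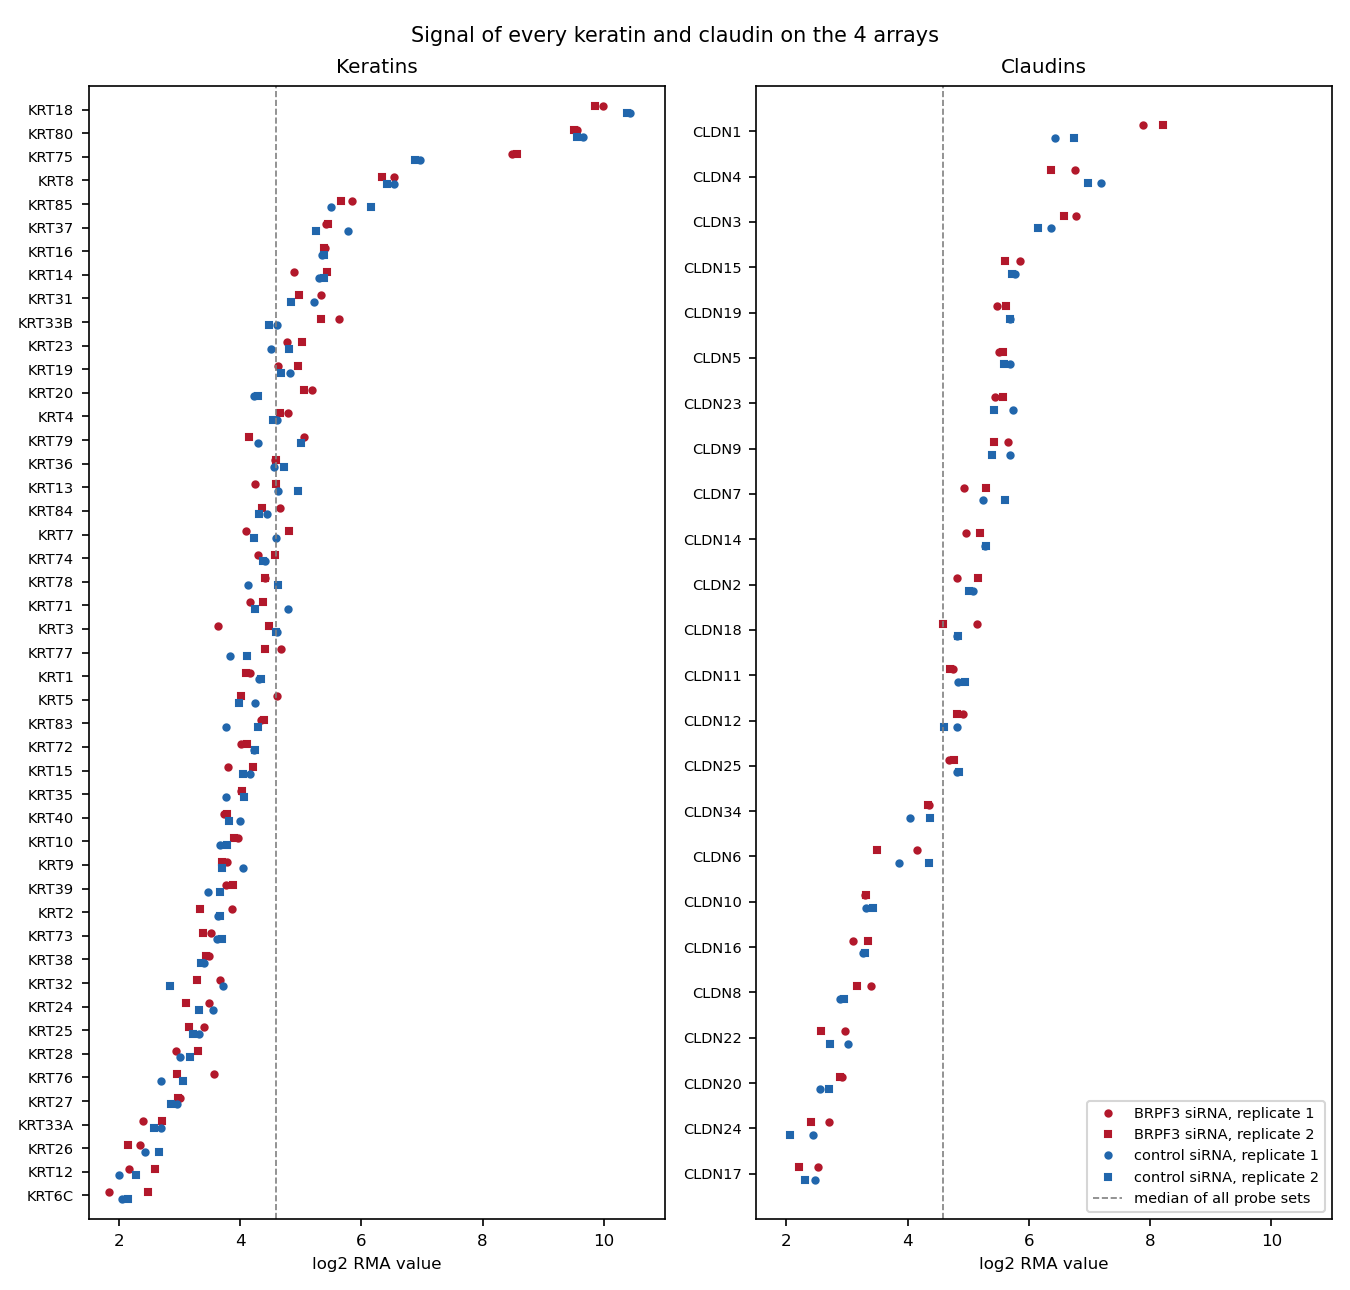
Signal of all 47 keratins and 24 claudins on each array (x axis, log2 RMA value), ordered by their mean. Red points are BRPF3 siRNA and blue points control siRNA, circles replicate 1 and squares replicate 2; the dashed line is the bound of 4.59. Most keratins lie left of the line, and the red and blue points are widest apart for KRT75 and CLDN1.

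The brightest keratin probe sets were those of KRT18, KRT80, KRT75, KRT8 and KRT85, and the brightest claudin probe sets those of CLDN1, CLDN4, CLDN3, CLDN15 and CLDN19. Signals of different probe sets depend on their probes, so this order is of signal and not of transcript number. KRT18 (mean 10.16) and KRT80 (9.57), a type II keratin, lay at the percentiles 96.9 and 95.1 of all probe sets. This KRT18 level is that of its brighter probe set, and which transcripts that probe set reads was not tested. The other KRT18 probe set averaged 6.90. KRT7 (4.43) and KRT5 (4.21), which mark ductal and basal epithelia, were under the bound. Their type I partners KRT19 (4.77) and KRT14 (5.25) were over it.

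KRT75, a type II keratin of the companion layer around the growing hair, read 8.48 and 8.57 on the BRPF3 siRNA arrays, against 6.96 and 6.88 on the control siRNA arrays. The groups lay far apart and each was tight. The difference of 1.61 ± 0.08 (± gives limma's moderated SE throughout, with n = 2 arrays in each group) had an adjusted p of 0.00756 and was the largest rise of the 10696 genes. KRT75 is close in sequence to the KRT6 genes beside it, of which KRT6C averaged 2.13 with a difference of 0.06, so the share of those relatives in its signal is uncertain. The other 8 keratins of the hair follicle's inner layers, KRT25 to KRT28 and KRT71 to KRT74, were all under the bound, with differences from -0.30 (KRT26) to 0.08 (KRT27).

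KRT33B, a type I keratin of the hair shaft, read 5.63 and 5.33 with BRPF3 siRNA, against 4.61 and 4.48 with control siRNA, a difference of 0.93 ± 0.12 (limma, adjusted p = 0.0143). Its control mean of 4.54 was under the bound, so it was tested through its BRPF3 siRNA arrays. It also passed when all 14884 genes were tested without the bound (limma, adjusted p = 0.0450). KRT33A, whose coding sequence is nearly that of KRT33B, read 2.40 and 2.70 with BRPF3 siRNA, against 2.69 and 2.58 with control siRNA, and signal shared between these near-identical genes makes both uncertain. Of the 13 hair shaft keratins measured 5 were tested, and KRT33B alone among them passed: KRT85 differed by -0.07 ± 0.21, KRT37 by -0.08 ± 0.17, KRT31 by 0.13 ± 0.17 and KRT36 by -0.06 ± 0.09. The control arrays of KRT85 differed from each other by more than the groups did, at 5.49 and 6.15.

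KRT20, a type I keratin of intestinal epithelium, urothelium and Merkel cells, read 5.19 and 5.05 with BRPF3 siRNA, against 4.22 and 4.29 with control siRNA. Both control arrays lay under the bound and both BRPF3 siRNA arrays above it. The difference was 0.86 ± 0.09 (limma, adjusted p = 0.00946, and 0.038 without the bound). KRT23, its neighbour in the type I cluster, differed by 0.23 ± 0.14 (adjusted p = 0.295 in limma's test), with overlapping arrays.

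KRT18 has 2 probe sets, the only member with more than 1. The brighter, which stands for the gene by the rule, read 9.98 and 9.86 with BRPF3 siRNA, against 10.43 and 10.39 with control siRNA. It fell by 0.49 ± 0.09 on the log2 scale (limma, adjusted p = 0.0231). Probe set numbers on this platform follow the chromosomes: for 71 of the 72 member probe sets, most of the 20 nearest named probe sets by number belong to the gene's own chromosome. The exception was this brighter KRT18 probe set, whose 20 neighbours are all of chromosome 3, while KRT18 is on chromosome 12. The KRT18 gene has many processed copies elsewhere in the genome, and which transcripts this probe set reads was not tested. The dimmer probe set, numbered among genes of chromosome 12, read 6.63 and 6.89 with BRPF3 siRNA, against 7.06 and 7.01 with control siRNA, a difference of -0.28 ± 0.11 that did not pass (limma, adjusted p = 0.137). The call for KRT18 thus rests on the brighter probe set, and it was also lost without BRPF3 siRNA replicate 2 (limma, adjusted p = 0.0639).

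KRT8, the type II partner of KRT18 and its neighbour on chromosome 12, read 6.53 and 6.34 with BRPF3 siRNA, against 6.54 and 6.43 with control siRNA. The arrays overlapped and the difference was -0.05 (95% interval -0.30 to 0.20). KRT19, a type I keratin of simple epithelia, differed by 0.04 ± 0.13 and KRT80 by -0.07 ± 0.08. In the other pairs with both genes measured, KRT4 differed by 0.14 ± 0.09 and its mucosal partner KRT13 by -0.37 ± 0.16 (adjusted p = 0.297 and 0.166 in limma's test). KRT14 of basal epidermis differed by -0.18 ± 0.18, and its partner KRT5 was dim, with a difference of 0.20. Both KRT1 (-0.19) and KRT10 (0.21) of upper epidermis were dim, as were KRT3 (-0.55) and KRT12 (0.24) of the cornea. KRT16, a keratin of wounded epidermis, differed by 0.01 ± 0.08. KRT79 had the widest spread of the tested keratins, with 5.06 and 4.15 under BRPF3 siRNA against 4.29 and 5.01 under control siRNA. In all, 3 of 17 tested keratins rose and 1 fell (17.6% and 5.88%, against 6.32% and 9.44% of all tested genes). Among the 14 bright enough with control siRNA alone, 1 rose (7.14%, against 6.25% of all such genes). The median difference of the tested keratins was -0.04, against -0.03 over all genes.

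**Figure D2:**
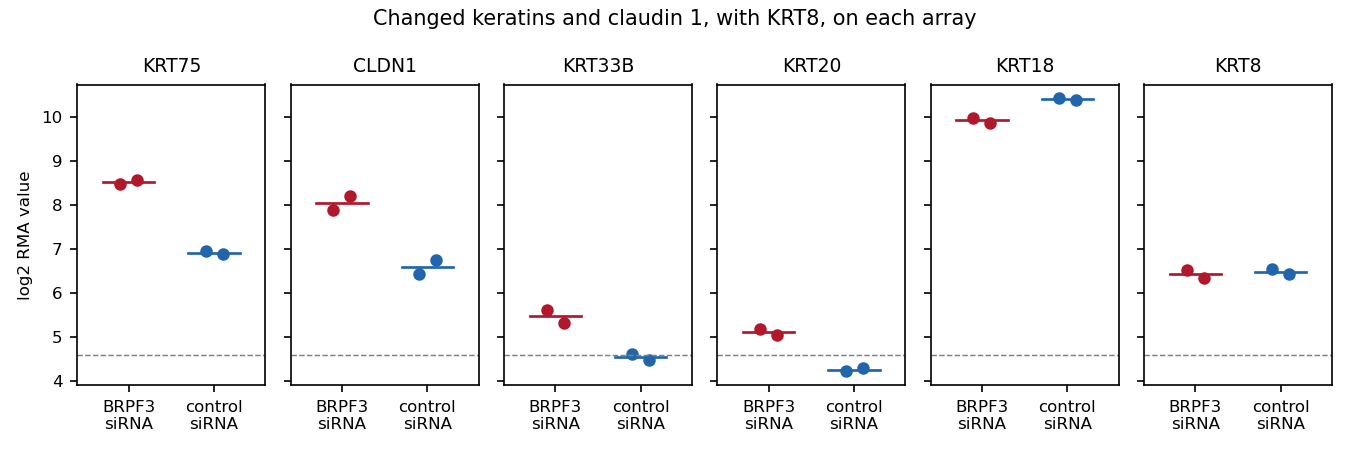
Each array's log2 RMA value (y axis) for the 5 called members and KRT8, with BRPF3 siRNA left (red) and control siRNA right (blue). Points are arrays, short lines are means of 2, and the dashed line is the bound of 4.59. The groups are apart for the first 5 genes and overlap for KRT8, and the control arrays of KRT20 lie under the line.

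CLDN1, a sealing claudin that the skin barrier depends on, read 7.88 and 8.21 with BRPF3 siRNA, against 6.43 and 6.75 with control siRNA. The groups were apart by more than 1 log2 unit. The difference was 1.45 ± 0.15 (limma, adjusted p = 0.00985), the 4th largest rise of all tested genes. CLDN16, a magnesium channel claudin of the kidney and the nearest protein-coding gene of the family to CLDN1 on chromosome 3, was dim at 3.10 and 3.34 with BRPF3 siRNA, against 3.27 and 3.29 with control siRNA.

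CLDN3 and CLDN4, adjacent genes of chromosome 7 for similar barrier claudins that both bind Clostridium perfringens enterotoxin, lay on opposite sides of 0. CLDN3 read 6.78 and 6.57 with BRPF3 siRNA, against 6.36 and 6.16 with control siRNA, and CLDN4 read 6.76 and 6.36 with BRPF3 siRNA, against 7.19 and 6.98 with control siRNA. Neither gene's groups of arrays overlapped. The differences were 0.42 ± 0.11 for CLDN3 and -0.53 ± 0.15 for CLDN4, and neither passed (limma, adjusted p = 0.0614 and 0.0690). Both passed with an intensity trend in limma (adjusted p = 0.0306 and 0.0211). They also passed when the bound was set at the 75th percentile of signal (limma, adjusted p = 0.0215 and 0.0263). These 2 settings called a larger share of all tested genes, 2645 of 10696 and 2183 of 6407, against 15.8% in the main test. Neither gene passed with no bound (limma, adjusted p = 0.121 and 0.130). With 1 array left out, the CLDN3 difference ran from 0.31 to 0.52. That of CLDN4 was -0.33 without BRPF3 siRNA replicate 2 and -0.73 without BRPF3 siRNA replicate 1, where it passed (limma, adjusted p = 0.0448).

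The remaining 12 tested claudins had differences between -0.31 ± 0.17 (CLDN7, of basolateral epithelial membranes) and 0.15 ± 0.10 (CLDN12), with adjusted p-values from 0.210 to 0.987 in limma's test. Among them were the channel formers CLDN2 (-0.06 ± 0.13) and CLDN15 (-0.01 ± 0.11), CLDN5 of endothelium (-0.10 ± 0.08), CLDN11 of myelin (-0.16 ± 0.08), CLDN14 of the inner ear (-0.21 ± 0.10), CLDN18 of stomach and lung (0.04 ± 0.18) and CLDN19 of the kidney (-0.14 ± 0.09). CLDN9 differed by 0.00362 ± 0.13, CLDN23 by -0.08 ± 0.12 and CLDN25 by -0.11 ± 0.08. In all, 1 of 15 tested claudins rose (6.67%, against 6.32% of all tested genes) and 0 fell (against 9.44%), with a median difference of -0.08. An unadjusted p under 0.05 was found for 3 of the 15 (20.0%), against 34.6% of all tested genes. Groups of arrays did not overlap for 9 of 15 claudins and 6 of 17 keratins, against 63.2% of all tested genes.

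**Figure D3:**
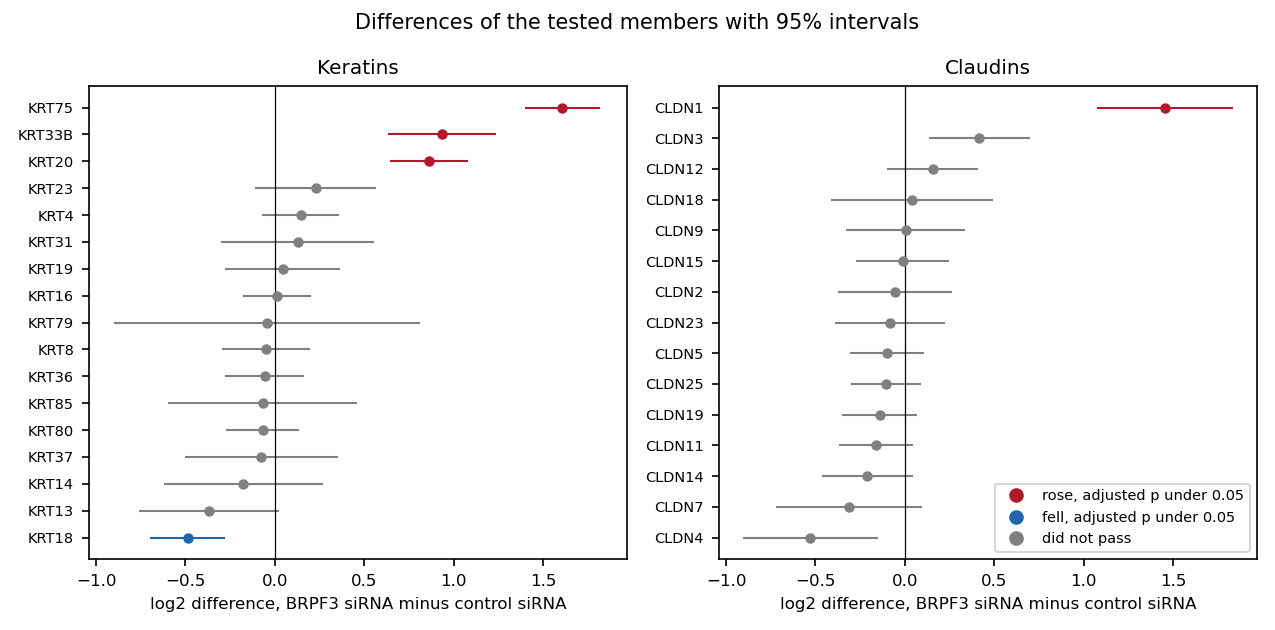
Log2 difference of BRPF3 siRNA minus control siRNA (x axis) for the 17 keratins and 15 claudins tested, with limma's 95% interval. Red points rose, the blue point fell and grey points did not pass; the intervals of CLDN3 and CLDN4 leave out 0 without adjustment.

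Type II keratins lie in a row on chromosome 12 together with KRT18, and the other type I keratins on chromosome 17. The members that rose were not next to each other there. KRT75 stands between KRT82 and KRT6B, which were not analysed here, and the nearest measured genes on either side were the dim KRT84 (difference 0.14) and KRT6C (0.06). KRT20 stands between the dim KRT12 (0.24) and KRT23 (0.23), and KRT33B between KRT33A (-0.08) and KRT34, which was not analysed here. KRT8 and KRT18 close the row on chromosome 12.

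**Figure D4:**
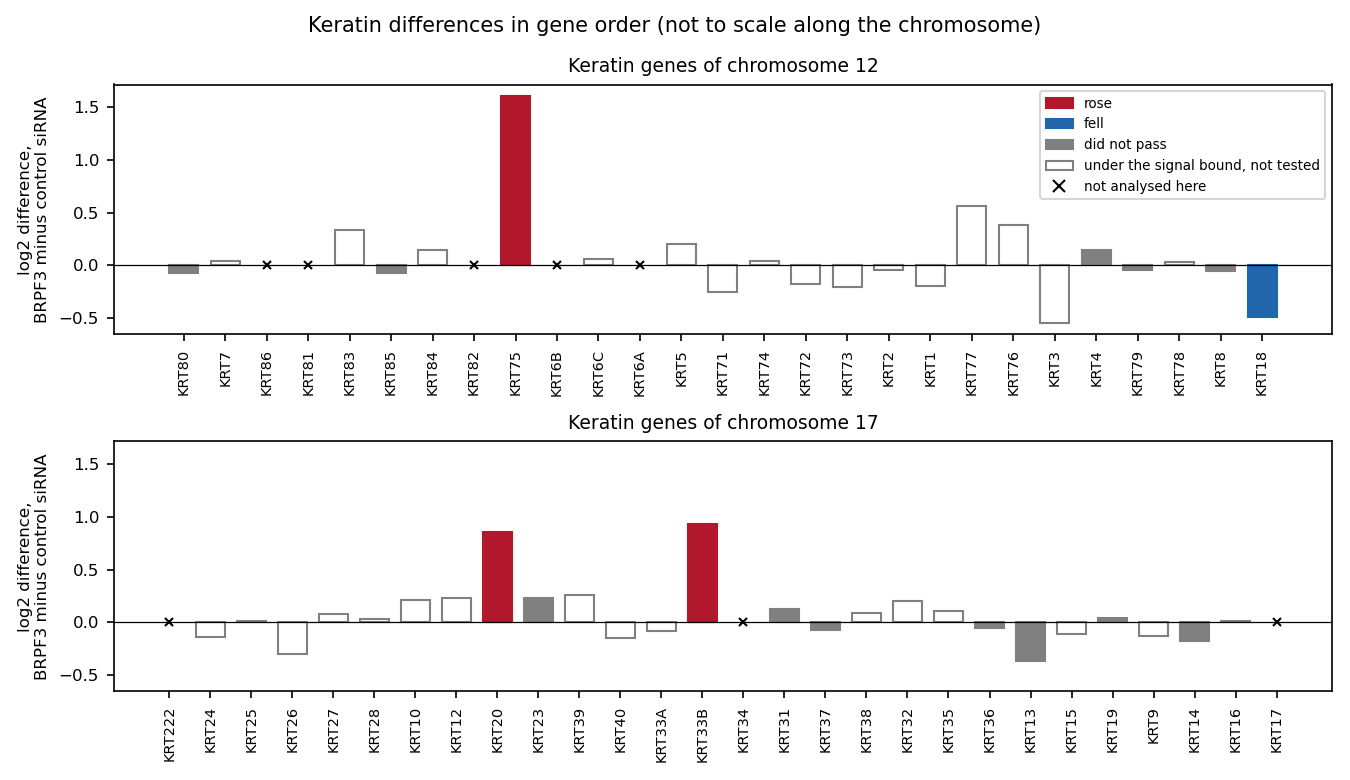
Log2 difference, BRPF3 siRNA minus control siRNA (y axis), for the keratin genes of chromosomes 12 and 17 in gene order, evenly spaced. Filled bars were tested (red rose, blue fell, grey did not pass), open bars are dim members and crosses are genes not analysed here. The red bars of KRT75, KRT20 and KRT33B are the 3 tallest, and the neighbouring bars of KRT20 are at 0.24 and 0.23.

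Genes that work with these families were given by lists. Of 21 tested tight junction partners of claudins, 0 rose and 3 fell (14.3%, against 9.44% of all tested genes that fell), with a median difference of -0.10. Cingulin (CGN), which ties tight junctions to the actomyosin cytoskeleton, read 5.01 and 4.95 with BRPF3 siRNA, against 5.72 and 5.60 with control siRNA, and fell by 0.68 ± 0.09. The junctional adhesion molecules JAM2 (-0.64 ± 0.12) and JAM3 (-0.57 ± 0.10) fell as well (limma, adjusted p = 0.0132, 0.0250 and 0.0225 for the 3 genes). The strand protein occludin (OCLN, 0.28 ± 0.09) and the scaffolds PATJ (0.32 ± 0.10) and TJP1 (0.07 ± 0.08) did not pass. All 9 tested genes of desmosomes and hemidesmosomes, where keratin filaments are anchored, were without a call by limma, against 15.8% of all tested genes called. They ran from PKP4 (-0.14 ± 0.08) to CD151 (0.16 ± 0.08). An unadjusted p under 0.05 in limma's test was found for 0 of them, against 34.6% of all. A further 7 of the 16 measured were dim, DSP (mean 4.31) among them. PERP, COL17A1, ITGA6 and ITGB4 of this list were not named on the arrays.

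Of 12 tested genes for other intermediate filaments, their partners and cytolinkers, 1 rose and 1 fell (16.7% called, against 15.8% of all tested genes). Desmin (DES), the filament protein of muscle, rose 1.65-fold (0.73 ± 0.10), and TRIM2, a ubiquitin ligase that binds neurofilaments, fell by 1.20 ± 0.12 (limma, adjusted p = 0.0153 and 0.00878). Vimentin (VIM), the filament protein of mesenchymal cells, was bright and differed by 0.13 ± 0.08. Of 12 tested genes of keratinocyte differentiation 1 rose (8.33%, against 6.32% of all tested genes) and 0 fell (against 9.44%). NIPAL4, a magnesium transporter mutated in ichthyosis, rose 2.72-fold (1.45 ± 0.10, limma, adjusted p = 0.00756). Loricrin (LORICRIN, 0.41 ± 0.18) and SPRR3 (-0.32 ± 0.11), both of the cornified envelope, did not pass. Among 13 tested transcription regulators of epithelial genes 0 were called, against 15.8% of all tested genes. An unadjusted p under 0.05 in limma's test was found for 3 of them (23.1%, against 34.6% of all). The extremes by moderated t were KLF5 (-0.30 ± 0.09) and PRRX1 (0.40 ± 0.11). SNAI2, a repressor of epithelial genes, was bright and differed by 0.14 ± 0.12.

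**Figure D5:**
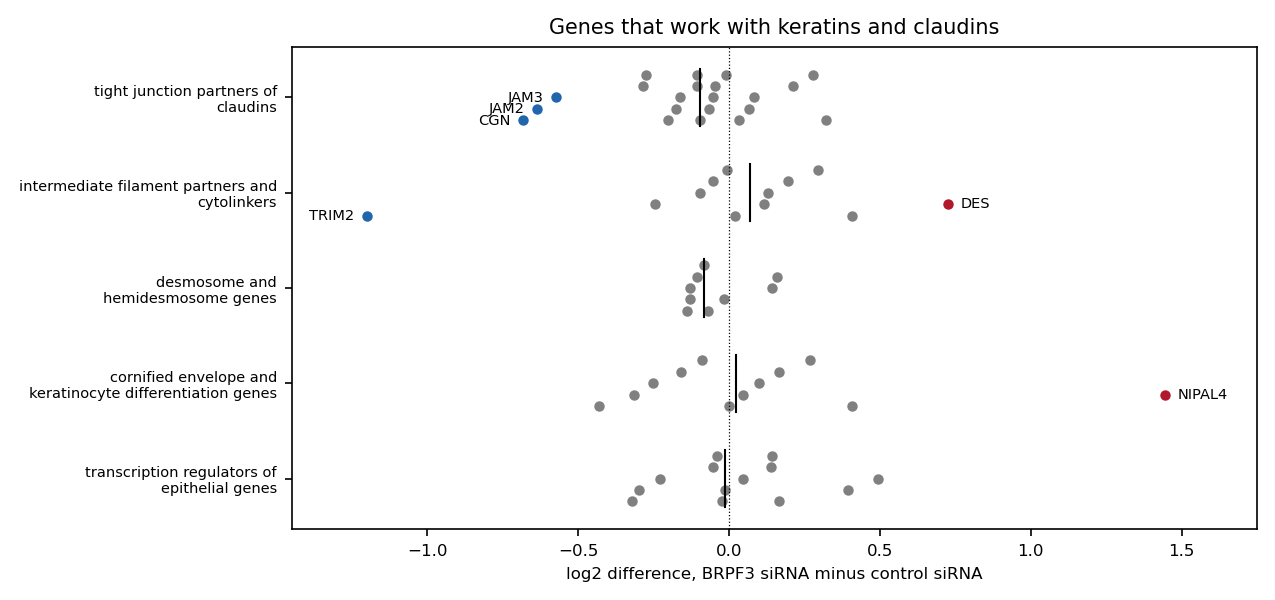
Log2 difference, BRPF3 siRNA minus control siRNA (x axis), of the tested genes in 5 lists. Points are genes (red rose, blue fell, grey did not pass), spread vertically for sight only, and black bars are list medians. The called genes are CGN, JAM2, JAM3, TRIM2, DES and NIPAL4.

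Of the mesenchymal and bone markers, VIM read 10.35 to 10.52 and FN1 10.68 to 10.75 over the 4 arrays, and the bone regulator RUNX2 6.31 to 6.56. SP7, which follows RUNX2 in bone formation, lay near the bound. Of the bone matrix genes, SPP1 read 6.95 and 6.90 with BRPF3 siRNA, against 6.73 and 6.60 with control siRNA (0.26 ± 0.09, limma, adjusted p = 0.0946), and IBSP was dim at 2.46 to 2.76. Of 10 epithelial markers outside the families only EPCAM and ST14 were named. EPCAM, an adhesion protein of epithelia, read 8.14 and 8.22 with BRPF3 siRNA, against 7.94 and 7.90 with control siRNA (0.27 ± 0.08, limma, adjusted p = 0.0754). ST14 read 4.93 and 4.77 with BRPF3 siRNA, against 4.84 and 4.83 with control siRNA (0.02 ± 0.09), with overlapping arrays. The mean log2 value of these 2 markers was 6.49 to 6.54 with BRPF3 siRNA and 6.37 to 6.39 with control siRNA, mostly through EPCAM. Over 5 melanocyte markers it was 4.44 to 4.48 with BRPF3 siRNA, against 4.44 to 4.45 with control siRNA. MITF rose (0.49 ± 0.09), SOX10 was without a call (-0.04 ± 0.08), and TYR, PMEL and MLANA were dim. Over 4 leukocyte markers the mean log2 value was 5.75 to 5.92 with BRPF3 siRNA, against 5.87 to 6.07 with control siRNA. LAPTM5 fell (-0.88 ± 0.13), TYROBP (0.23 ± 0.18) and the bright CD68 (0.01 ± 0.14) were without a call, and CD14 was dim (difference 0.11). Over 4 endothelial markers the mean log2 value was 4.58 to 4.62 with BRPF3 siRNA, against 4.73 to 4.75 with control siRNA. PECAM1, KDR and VWF were dim, and ERG, the 1 tested, read 6.64 to 6.86 without a call (-0.03 ± 0.10). The part of these markers in the keratin and claudin results was not tested. In RNA from whole cultures, more cells with a transcript and more transcript per cell cannot be told apart.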

How the data were processed

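Total RNA of U2OS cells from 4 samples was hybridised to Affymetrix whole-transcript arrays, 1 per sample, per the labels. The deposited table holds log2 values of 53617 probe sets, made by the authors with RMA per the submitters' processing notes. RMA corrects background, normalizes between arrays and summarises probes; its version and settings were not stated in the labels. The values were used as deposited. Normalization makes differences relative to the bulk of transcripts, and values near background are compressed.

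A platform annotation gave 1 gene symbol to 16098 probe sets, several to 0 and none to 37519. Its gene identifiers all matched a RefSeq table (GRCh38.p14), used for names, gene class and gene order. Groups and replicate numbers came from the sample titles.

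One probe set per gene was kept and genes under the median signal were left out, leaving 10696 of 14884 genes. They were tested with limma 3.58.1 in R 4.3.3 (lmFit, eBayes, two-sided, Benjamini-Hochberg over all genes, threshold 0.05), with 2 residual and 3.81 prior degrees of freedom. The procedure was tested on simulated data. An exact permutation test of 2 arrays against 2 cannot go below p = 0.333. Between replicate arrays the tested members differed with an SD of 0.30 for BRPF3 siRNA and 0.27 for control siRNA, against 0.20 and 0.17 over all tested genes.

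The text names each called member, the brightest 5 of each family, the extremes by moderated t, the type II and type I pairs, the members next to the bound and the called or extreme genes of each list; other members were named after their values were seen. The members and lists were chosen with earlier results of these data known. Alternatives were 3 normalizations, the replicate block, trend and robust fitting, 2 filters, the mean of probe sets, protein-coding genes, an adjusted p under 0.1 and each array left out; the other KRT18 probe set was added after seeing the data.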

Additional observations from a re-analysis of the deposited data

How the results depend on the processing

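The count of changed genes was 1686, with 676 up and 1010 down. It became 2645 with an intensity trend, 409 with no signal bound, 2877 at an adjusted p under 0.1, and 0 to 791 with 1 array left out. Quantile and cyclic loess normalization gave 764 up and 718 down, and 766 up and 736 down. With the bound at the 75th percentile 2183 of 6407 tested genes were called, and only 4 keratins and 3 claudins were tested there. With protein-coding genes alone 1807 of 9492 tested genes were called, with 15 claudins tested. The keratin count of 4 was 2 with the bound at the 75th percentile, where KRT20 and KRT33B are no longer tested, and 0 to 4 with 1 array left out. The claudin count of 1 was 3 with the replicate block, 3 with an intensity trend, 3 at the 75th percentile, 2 with protein-coding genes alone, 3 at an adjusted p under 0.1, and 0 to 2 with 1 array left out; CLDN3, CLDN4 or both were added each time, under the block with adjusted p-values of 0.0367 and 0.0322 (limma).

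The 0 counts arose without either control array, where the lone control is assumed to vary like the BRPF3 siRNA arrays. KRT75, CLDN1, KRT20 and KRT33B kept their calls in every other setting in which they were tested. Differences ran from 1.56 to 1.66 for KRT75, 1.29 to 1.62 for CLDN1, 0.79 to 0.93 for KRT20 and 0.78 to 1.08 for KRT33B. KRT18 ran from -0.55 to -0.28 and lost its call in 5 of 16 settings: with no bound, without either control array, without BRPF3 siRNA replicate 2 and on its other probe set (adjusted p of 0.0631 to 0.137). The block also called KRT13 (adjusted p = 0.0435 in limma's test). The labels do not say that a replicate number marks a shared batch or day. Deviations of same-numbered arrays correlated at 0.14 over the tested genes, and the block moved the count of all changed genes to 1604. Apart from the shifts named here, the cause of a lost or gained call was not tested.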
